A study of Mus musculus with 27 samples.

Results

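Killer cell lectin-like receptors are C-type lectin-like proteins of the cell surface, and their genes lie close together in the natural killer gene complex. All genes whose symbol starts with Klra, Klrb, Klrc, Klrd, Klre, Klrg, Klrh, Klri or Klrk in both single cell matrices were taken, whatever their level. That gave 27 of 33696 genes, all on mouse chromosome 6, and 25 of them had at least 100 UMIs (unique molecular identifiers, counted RNA molecules) over the cells kept. Klrb1 with 30 UMIs and Klra10 with 53 UMIs fell below that level and are given by their totals only. Klrh1 carries another symbol in the name table used for the bulk gene IDs and was matched by its ID.

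The samples came from MC38 tumours, MC38 being a mouse colon carcinoma line. The mice called WT carried a floxed Ogt gene, and the mice called KO carried the same floxed gene together with the Lyz2-cre transgene, so the controls share the floxed allele. Ogt encodes O-GlcNAc transferase, and Lyz2-cre acts mainly in macrophages, monocytes and neutrophils, so the lymphocytes that carry most of these receptors are not the cells in which the transgene is driven. The sources used here give no strain, age or sex, and nothing in them says whether the samples of a group came from separate animals. Single cell RNA-seq of CD45-positive cells was labelled with 2 samples per genotype, but 1 matrix per genotype was used, so a difference between genotypes in single cells has no replicate check and no test. Bulk RNA-seq of tumour-associated macrophages had 3 WT and 3 KO libraries, and peak lists of open chromatin (ATAC-seq) and of EGR2 binding (CUT&Tag) in macrophages were read beside it.

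After filtering, 9712 WT and 9767 KO cells remained, with a median of 5579 and 5807 UMIs per cell, and 23 cell barcodes occurred in both matrices. Bulk libraries held between 7032540 and 32406170 counts. Ogt itself, read first as a check of the labels, stood at 61.0, 58.7 and 49.2 CPM (counts divided by the normalised library size) in the WT bulk libraries and at 32.0, 39.1 and 33.0 CPM in the KO libraries, a log2 fold change of -0.72 ± 0.095 (SE, adjusted p = 2.98e-09, edgeR quasi-likelihood test). In single cells Ogt stood at 48.0 CPM in WT and 38.8 CPM in KO macrophage-like cells, a ratio of 0.808 (0.730 to 0.893). The ratio was 0.797 (0.707 to 0.897) in monocyte-like cells. Neutrophil-like cells had the lowest ratio of all classes, 0.590 (0.469 to 0.742). Classes in which Lyz2-cre is not driven varied around 1, with ratios of 0.820 (0.739 to 0.910) in CD4 T-like, 0.854 (0.782 to 0.933) in regulatory T-like, 0.942 in NK-like and 1.14 in CD8 T-like cells. The single cell values thus do not set macrophage-like or monocyte-like cells apart.

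The receptors fall into groups with different roles. The Klra genes encode the Ly49 receptors, many of which in mice bind MHC class I. Most Ly49 receptors, such as Ly49A, Ly49C, Ly49G and Ly49I, inhibit the cell that carries them, whereas Ly49D and Ly49H activate it through the adaptor DAP12 (Tyrobp). CD94 (Klrd1) pairs with NKG2A (Klrc1), which inhibits, or with NKG2C (Klrc2) or NKG2E (Klrc3), and these pairs recognise the MHC class Ib molecule Qa-1. NKG2D (Klrk1) activates NK cells and co-stimulates CD8 T cells on meeting stress-induced ligands, the Klrb1 receptors bind Clec2 family proteins, and KLRG1 binds cadherins. Klre1 pairs with Klri1 or Klri2, and Klrh1 is a related receptor described on subsets of lymphocytes.

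The promoters of the Ly49 genes are shown because the Ly49 members differed most from each other in which cells held them. RefSeq promoter windows (GRCm38.p6, the 250 bases before the start were searched) were found for 24 of the 27 members. A block that starts with the same 15 bases, with A or G allowed at the fourth and C or T at the twelfth, stood upstream of 9 of the 11 Klra genes on the strand of the gene, and in 10 of 27025 genes with windows in all. It was absent from the windows of Klra1 and Klra10 and from one of the windows of Klra7. For Klra3 only 23 bases of the block lay within the bases searched, so it is not printed. In the sequences below, 5′ to 3′ on the minus strand, capitals mark bases 18 to 24 of the 42-base block, where the genes differ most visibly.
Klra4 (Ly49D), chr6:130067313-130067354: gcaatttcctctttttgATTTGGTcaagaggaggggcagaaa
Klra8 (Ly49H), chr6:130129941-130129982: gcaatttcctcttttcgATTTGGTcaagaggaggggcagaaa
Klra17 (Ly49Q), chr6:129876709-129876750: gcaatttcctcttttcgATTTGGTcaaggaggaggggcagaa
Klra7 (Ly49G), chr6:130233374-130233415: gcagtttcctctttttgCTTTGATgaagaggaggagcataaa
Klra6 (Ly49F), chr6:130027036-130027077: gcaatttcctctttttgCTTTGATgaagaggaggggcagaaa
Klra9 (Ly49I), chr6:130193113-130193154: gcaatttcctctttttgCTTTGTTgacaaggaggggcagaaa
Klra5 (Ly49E), chr6:129913277-129913318: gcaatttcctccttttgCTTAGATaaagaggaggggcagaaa
Klra2 (Ly49B), chr6:131247396-131247437: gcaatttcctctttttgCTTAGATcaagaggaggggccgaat
Klra4, Klra8 and Klra17 shared the marked bases ATTTGGT, Klra6 and Klra7 shared CTTTGAT, and Klra5 and Klra2 shared CTTAGAT. The letters CTTTGAT, a core motif of TCF and LEF factors, were found on either strand in the promoters of 2 of the 24 members (8.33%, Klra6 and Klra7) and of 3.72% of all genes. The letters TGTGGT, a core motif of RUNX factors, were found in 8 of 24 members (33.3%) and in 15.9% of all genes, and AGGTGTGA, a core motif of T-box factors, in 0 of 24 and in 1.30% of all genes. The 8 with TGTGGT were Klra1, Klrb1a, Klrb1c, Klrc1, Klrc2, Klrc3, Klre1 and Klrk1. Over the whole upstream window the most alike pair of Klrc2 and Klrc3 windows was 98.0% identical and that of Klra4 and Klra8 84.5% identical, against a median of 48.7% over 401 pairs of member windows. Transcripts were not compared here. The Klra genes are a family of close paralogs, as are the Klrc genes, so how their reads and UMIs divide among family members is uncertain.

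NK-like cells held most of the receptor RNA. Cells were clustered without the 27 genes, and clusters were named from marker genes that are not members. The NK-like class (1391 WT and 1064 KO cells) was led by Gzma, Ncr1, Xcl1 and Eomes, the CD8 T-like class (1102 and 1532 cells) by Cd8a and Cd8b1, the regulatory T-like class (995 and 1108 cells) by Foxp3 and Il2ra, the CD4 T-like class (607 and 831 cells) by Cd40lg and Cd4, and the gamma-delta T-like class (158 and 178 cells) by Il17a and Trdc. All 27 genes together came to 3943 CPM in NK-like cells over both genotypes, against 1409 in CD8 T-like, 398 in CD4 T-like, 386 in regulatory T-like, 260 in gamma-delta T-like and 354 in macrophage-like cells. In single cells CPM is taken over all UMIs of a class, and the values compare a gene between classes, not 2 genes with each other.

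**Figure D1:**
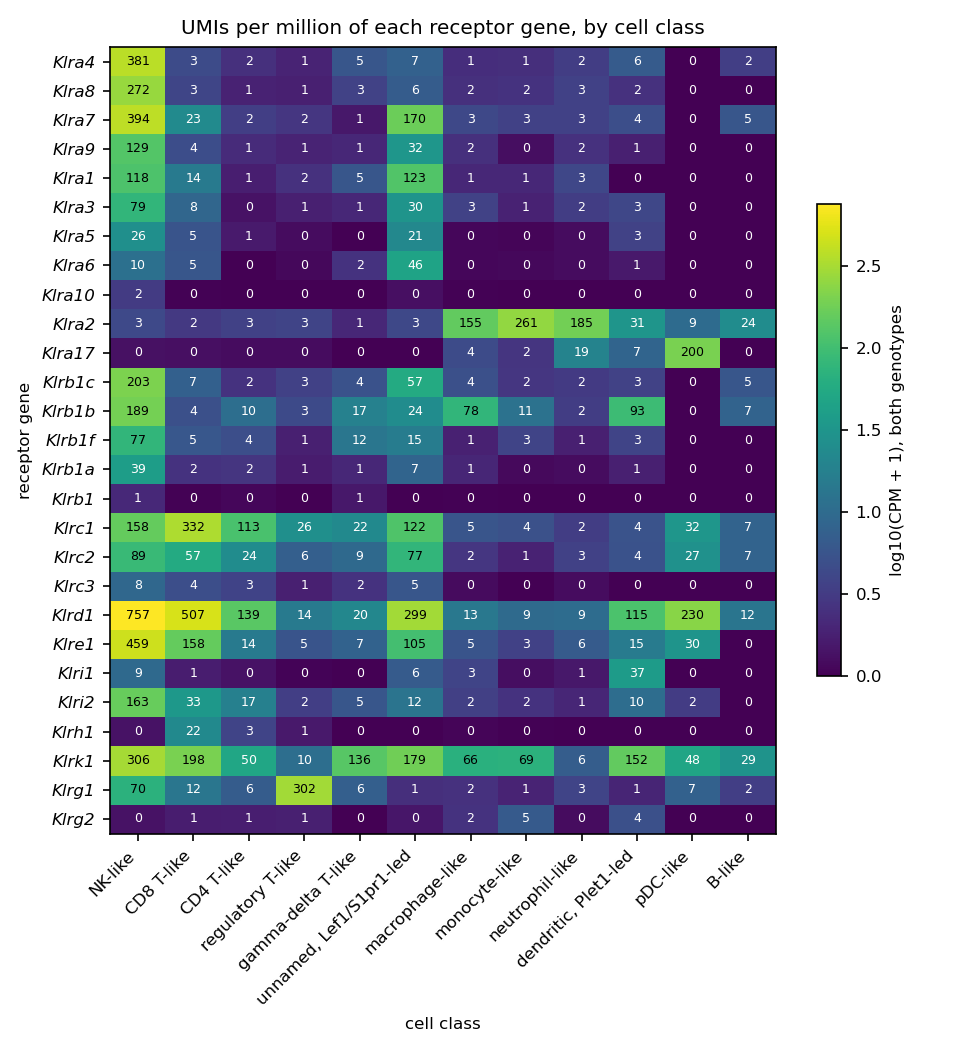
Level of each of the 27 receptor genes (rows) in each class of cells (columns), as CPM over both genotypes, shown by colour as log10(CPM + 1) and printed as CPM in each square. Most rows peak in the NK column. Klrc1 and Klrh1 peak in CD8 T-like cells, Klra6 and, narrowly, Klra1 in the unnamed cluster led by Lef1 and S1pr1. Klri1 peaks in the Plet1-led dendritic cluster, Klrg1 in regulatory T-like cells, Klra2 and Klrg2 in monocyte-like cells and Klra17 in the plasmacytoid dendritic column.

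The activating Ly49 genes had the largest shares of their UMIs in NK-like cells. Klra4 (Ly49D) stood at 381 CPM in NK-like cells, and 95.7% of its UMIs lay there. Klra8 (Ly49H) stood at 272 CPM, with 96.1% of its UMIs in NK-like cells. Among the other named classes none held more than 5.63 CPM of Klra4. A small unnamed cluster of 100 cells, led by Tm4sf1, Rhox5 and Serpinh1, held 65.8 CPM of Klra4 (55 WT and 41 KO UMIs, in 26% of its cells) and 0 UMIs of Klra8. Thinned to 2000 UMIs per cell, 36.9% of WT and 36.2% of KO NK-like cells had a Klra4 UMI, against 0.508% and 0.285% of macrophage-like cells, a class that should lack it. The class medians were 7142 and 6857 UMIs in NK-like cells.

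Among the inhibitory Ly49 genes, Klra7, Klra9, Klra1, Klra3 and Klra5 were highest in NK-like cells among the named classes but reached further. Klra7 (Ly49G) stood at 394 CPM in NK-like and 23.2 CPM in CD8 T-like cells, Klra9 (Ly49I) at 129 and 3.80 CPM, Klra1 (Ly49A) at 118 and 14.1 CPM, and Klra3 (Ly49C) at 78.5 and 7.84 CPM. Klra6 (Ly49F) was low, at 10.5 CPM in NK-like and 4.88 CPM in CD8 T-like cells, and stood higher in an unnamed cluster described further on. Klra5 (Ly49E) stood at 26.5 CPM in NK-like cells. Its level there was highest in a small cluster of 106 cells led by Gzmd, Gzme and Gzmg (107 CPM). The main NK-like cluster of 2165 cells stood at 14.2 CPM and held 233 of the 595 Klra5 UMIs of the class.

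The number of Ly49 genes detected per NK-like cell was counted at a fixed depth. Among 2415 NK-like cells thinned to 2000 UMIs, 21.6% had a UMI of none of 9 Klra genes, 29.3% of 1, 28.7% of 2, 14.8% of 3 and 5.55% of 4 or more. The mean number was 1.52 genes in WT and 1.57 in KO cells. At this depth even Klra4 gave under 1 UMI per cell on average, so these are numbers detected, which depth limits, and not numbers expressed. Within the main NK-like cluster (2128 thinned cells), Klra4 and Klra8 were found together in 366 cells, where the product of their shares gives 264, a ratio of 1.38. Klra4 and Klrc1 (NKG2A) were found together in 89 cells where that product gives 184, a ratio of 0.485, and Klra8 and Klrc1 had a ratio of 0.60. Over all 78 pairs of 13 receptors this ratio lay between 0.485 and 1.66, the highest being Klra9 with Klrg1 (45 cells against 27.2). These counts are a description of cells that share 2 libraries, and UMIs of close paralogs can be assigned to the wrong one.

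The other NK receptors spread over more classes. Klrd1 (CD94), the partner of the NKG2 proteins, stood at 757 CPM in NK-like, 507 in CD8 T-like and 139 in CD4 T-like cells. Klrk1 (NKG2D) stood at 306 CPM in NK-like, 198 in CD8 T-like and 136 CPM in gamma-delta T-like cells, and at 152 CPM in the dendritic cell cluster led by Plet1, Cd209a and Clec9a. Klrc1 (NKG2A) was higher in CD8 T-like cells (332 CPM) than in NK-like cells (158 CPM) and stood at 113 CPM in CD4 T-like cells, while Klrc2 (NKG2C) stood at 89.0 and 56.6 CPM and Klrc3 (NKG2E) at 8.27 and 3.92 CPM in NK-like and CD8 T-like cells. Klre1 stood at 459 CPM in NK-like and 158 CPM in CD8 T-like cells, and its partner Klri2 at 163 and 33.2 CPM. The other partner, Klri1, was highest in the Plet1-led dendritic cluster, at 36.9 CPM, against 8.54 CPM in NK-like cells.

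Among the Klrb1 receptors, Klrb1c (NK1.1, the usual NK cell surface marker) stood at 203 CPM in NK-like cells, Klrb1f at 76.9 CPM and Klrb1a at 38.8 CPM, and no other named class held more than 12.4 CPM of Klrb1f. Klrb1b was different, at 189 CPM in NK-like cells but 93.2 CPM in the Plet1-led dendritic cluster. Klrg1, a receptor of effector lymphocytes that is also found on tissue regulatory T cells, stood at 302 CPM in regulatory T-like cells against 70.1 CPM in NK-like and 12.5 CPM in CD8 T-like cells. Thinned, 35.6% of WT and 39.9% of KO regulatory T-like cells had a Klrg1 UMI, against 0.339% and 0.569% of macrophage-like cells.

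Klrh1 was almost confined to T cells. It stood at 22.2 CPM in CD8 T-like cells and 2.88 CPM in CD4 T-like cells, and 1.45% of its 620 UMIs lay in NK-like cells. A few members belonged to myeloid cells. Klra2 (Ly49B) stood at 261 CPM in monocyte-like and 185 CPM in neutrophil-like cells, with 0.619% of its UMIs in NK-like cells. Klra17 (Ly49Q), known from plasmacytoid dendritic cells, stood at 200 CPM in the 50 cells named for that type and at 18.6 CPM in neutrophil-like cells, and Klrg2 at 5.48 CPM in monocyte-like cells.

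The genotypes were then compared class by class. A KO to WT ratio carries an exact 95% interval that covers counting error only, so it does not speak for other mice. A ratio was counted as past the fold when it was beyond 1.5-fold on the log2(CPM + 5) scale and the gene had at least 100 UMIs in the class. In NK-like cells the 27 genes summed to 4008 CPM in WT and 3862 CPM in KO, a ratio of 0.964 (0.951 to 0.977). Of 21 members with 100 UMIs, 0 were past the fold in either direction, where 0.501% of all 9373 genes were higher and 1.13% lower. The median log2 ratio was -0.089 over these members and -0.024 over all genes.

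Within that narrow range the receptors of NK-like cells differed from each other. Klra7 (Ly49G) stood at 357 CPM in WT and 439 CPM in KO cells (ratio 1.23, 1.18 to 1.28), Klra1 (Ly49A) at 103 and 136 CPM (1.32, 1.22 to 1.43) and Klrg1 at 61.5 and 80.9 CPM (1.31, 1.19 to 1.45). Klra4 (Ly49D) stood at 378 and 384 CPM and Klrd1 (CD94) at 755 and 759 CPM, ratios of 1.02 and 1.01. On the other side, Klra8 (Ly49H) stood at 293 and 246 CPM (0.840), Klrb1c (NK1.1) at 219 and 184 CPM (0.843), Klre1 at 494 and 416 CPM (0.843), Klrc2 (NKG2C) at 98.5 and 77.2 CPM (0.784) and Klrb1f at 85.7 and 66.0 CPM (0.770). The remaining ratios in NK-like cells were 0.945 for Klrc1, 0.942 for Klrk1, 0.960 for Klra3, 0.927 for Klra9, 0.933 for Klrb1a, 0.861 for Klrb1b, 0.840 for Klri2, 0.734 for Klrc3, 0.667 for Klri1 and 1.31 for Klra6.

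Klra5 (Ly49E) went in different directions in the NK-like clusters. It stood at 21.1 CPM in WT and 33.1 CPM in KO cells over the class (1.57, 1.33 to 1.85). In the main cluster it was lower in KO, at 16.8 and 10.8 CPM (0.643, 0.484 to 0.850). In the cycling NK-like cluster it stood at 11.7 and 67.4 CPM, from 27 and 108 UMIs in 119 WT and 65 KO cells, and in the Gzmd-led cluster at 87.3 and 122 CPM.

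CD8 T-like cells differed more. Their share of all cells was 11.3% in WT and 15.7% in KO, that of NK-like cells 14.3% and 10.9%. The 27 genes summed to 1169 CPM in WT and 1603 CPM in KO CD8 T-like cells, a ratio of 1.37 (1.34 to 1.40). Of 17 members with 100 UMIs, 4 were higher past the fold, where 1.11% of all genes were, and 1 was lower, where 2.09% of all genes were. The median log2 ratio was 0.20 over the 17 and -0.037 over all genes. How large the summed ratio came out depended on where the class ended, as it was 1.13 with a looser cell filter and 1.53 when each matrix was clustered by itself.

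**Figure D2:**
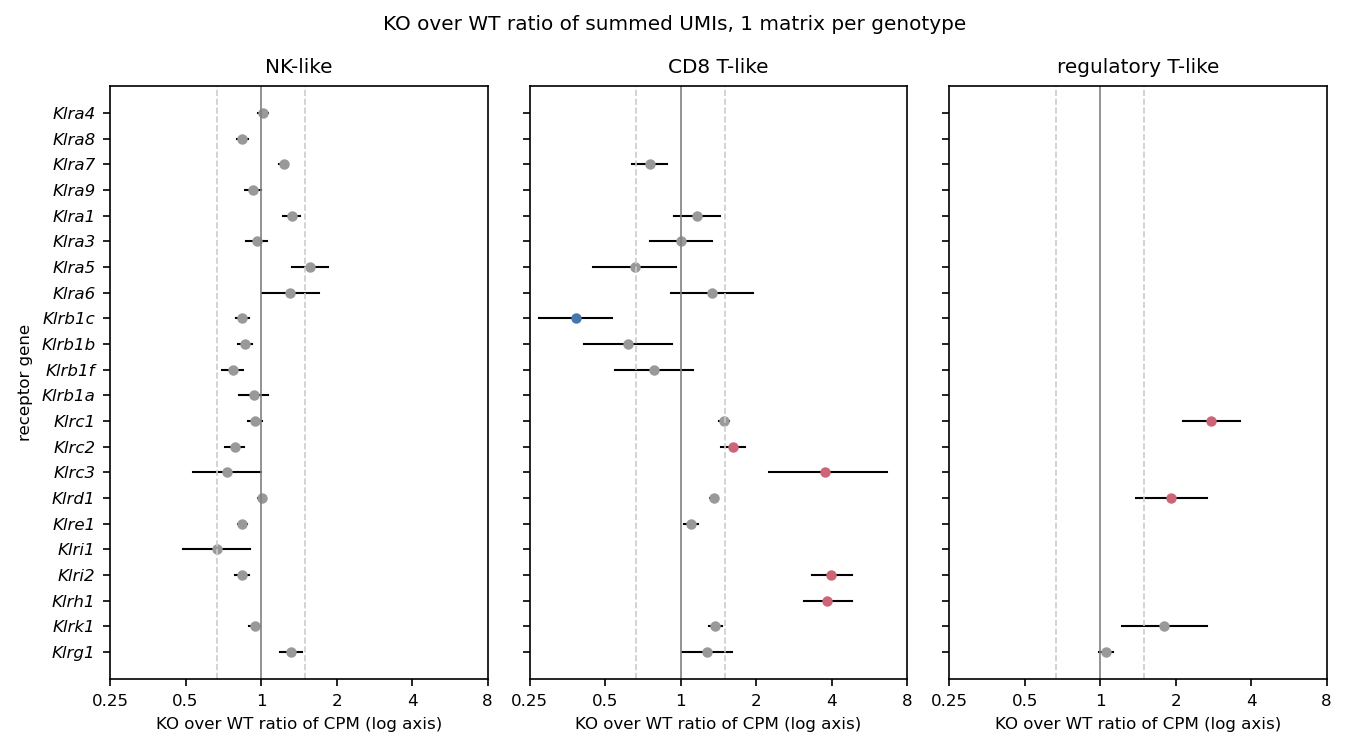
KO to WT ratio (log axis) of each receptor with at least 100 UMIs in NK-like, CD8 T-like and regulatory T-like cells, 1 matrix per genotype. Points are ratios of CPM, bars are exact 95% counting intervals, dashed lines mark 1.5-fold, and red and blue points are members past the fold on the log2(CPM + 5) scale. Ratios in NK-like cells lie between 0.667 and 1.57, while Klri2, Klrh1 and Klrc3 stand at 3.76 to 3.99 in CD8 T-like cells.

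The members past the fold in CD8 T-like cells were Klri2, Klrh1, Klrc3 and Klrc2. Klri2 stood at 12.5 CPM in WT and 49.8 CPM in KO cells (3.99, 3.34 to 4.81), and Klrh1 at 8.61 and 33.1 CPM (3.85, 3.10 to 4.82). Both stayed past the fold under all 8 alternative ways of making the class, but Klri2 varied more. Its log2 ratio, 1.65 in the main setting, ran from 0.639 to 1.91, and that of Klrh1, 1.49, from 1.34 to 1.54. Klrc3 (NKG2E) stood at 1.55 and 5.83 CPM (3.76, 2.24 to 6.66), from 18 and 84 UMIs, and Klrc2 (NKG2C) at 42.2 and 68.3 CPM (1.62, 1.45 to 1.81). These 2 were past the fold under 3 of 8 alternatives.

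NKG2A, NKG2D and CD94 were higher in KO CD8 T-like cells too, short of that fold. Klrc1 (NKG2A) stood at 261 and 389 CPM (1.49, 1.43 to 1.56), Klrk1 (NKG2D) at 164 and 225 CPM (1.38, 1.30 to 1.46), Klrd1 (CD94) at 423 and 574 CPM (1.36, 1.31 to 1.41) and Klre1 at 150 and 165 CPM (1.10, 1.03 to 1.17). Thinned to 2000 UMIs, 35.7% of WT and 49.3% of KO CD8 T-like cells had a Klrc1 UMI, against 0.508% and 0.911% of macrophage-like cells. Without thinning the shares were 64.2% and 74.9%, at class medians of 8202 and 7510 UMIs, and thinning left out 53 WT and 40 KO cells. For Klrd1 the thinned shares were 43.6% and 55.4% and for Klrk1 25.1% and 33.8%.

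Klrb1c, a marker of NK cells, ran the other way in CD8 T-like cells. Klrb1c (NK1.1) stood at 10.2 and 3.89 CPM (0.383, 0.273 to 0.531), past the fold, and Klra7 (Ly49G) at 26.9 and 20.2 CPM (0.752, 0.639 to 0.886). The Klrb1c values lie near the floor. Thinned, 1.43% of WT and 0.670% of KO CD8 T-like cells had a Klrb1c UMI, against 0.791% and 0.512% of macrophage-like cells. Barcodes with 1 to 50 UMIs, which hold free RNA, held 37.7 and 25.7 CPM of Klrb1c. The part of free RNA or of other cells in this difference was not tested. Klrb1c was past the fold under 6 of 8 alternatives. The stricter cell filter took it within the fold, and with each matrix clustered by itself it was higher in KO (log2 ratio 0.42). Ncr1, a marker of NK cells that is no member, stood at 8.35 and 2.64 CPM in the same cells. Klrb1b (0.618, 0.412 to 0.923) and Klrb1f (0.782, 0.546 to 1.12) also had ratios below 1, within the fold. The Klrb1 genes summed to 22.3 and 13.5 CPM (0.604, 0.499 to 0.731). Klrg1 had a ratio of 1.27 (1.01 to 1.61). Other Klra ratios in this class were 0.658 for Klra5, 1.33 for Klra6 and 1.16 for Klra1, and Klra3 stood at 7.83 and 7.85 CPM. The Klra genes summed to 71.9 and 63.4 CPM.

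The CD8 T-like class held a cluster led by Gzmk (450 WT and 679 KO cells), one led by Gzmf with Pdcd1 (364 and 590 cells) and a cycling one (288 and 263 cells). Klri2 was higher in KO in each of them, at 1.79 and 16.8 CPM in the Gzmk-led cluster (4 and 63 UMIs), 16.5 and 80.8 CPM in the Gzmf-led cluster and 13.7 and 34.1 CPM in the cycling cluster. Klrh1 had 0 UMIs in WT and 27 in KO cells of the Gzmk-led cluster, and 0 of 450 WT cells with a UMI has an exact upper bound of 0.816%, which limits cells with a captured UMI and not cells that express the gene. In the Gzmf-led cluster it stood at 8.72 and 57.9 CPM (6.64, 4.75 to 9.54), and in the cycling cluster the ratio was 1.62 from 12.3 CPM in WT.

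The Klrh1 UMIs came from a small set of cells. In WT, 16 of 1102 CD8 T-like cells (1.45%) had one, and 10 of them held 94.0% of the 100 UMIs. In KO, 91 of 1532 cells (5.94%) had one, and the top 10 held 31.0% of the 477 UMIs. Klri2 was found in 76 WT (6.90%) and 253 KO cells (16.5%). Thinned to 2000 UMIs, the shares were 0.477% and 3.22% for Klrh1, against 0% and 0.0569% of macrophage-like cells, and 1.62% and 6.70% for Klri2, against 0.452% and 0.455%.

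**Figure D3:**
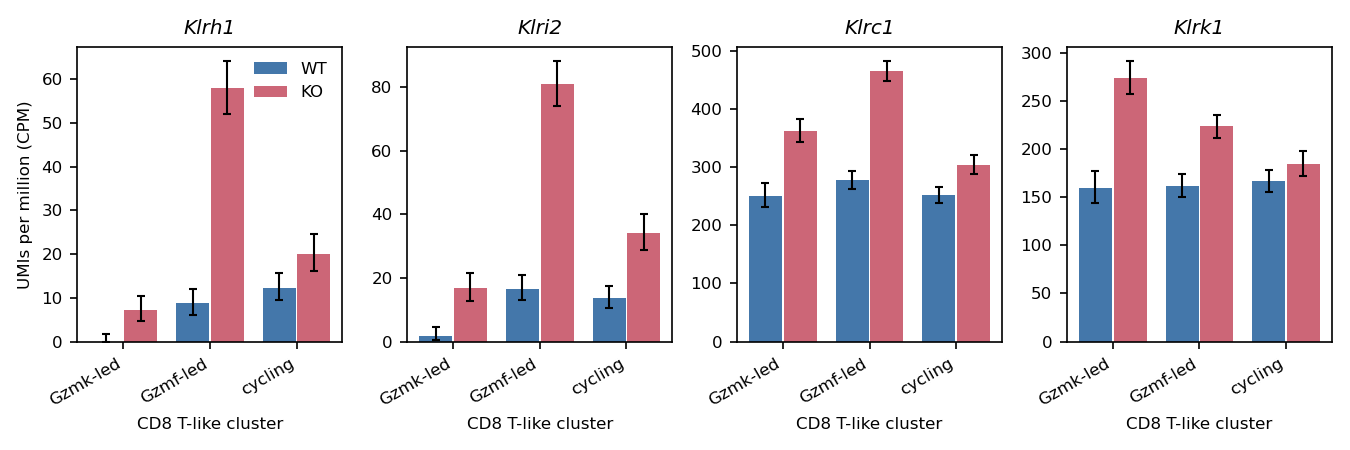
Klrh1, Klri2, Klrc1 and Klrk1 in the Gzmk-led, Gzmf-led and cycling clusters of CD8 T-like cells, WT beside KO, as CPM with exact 95% Poisson intervals as bars. Klrh1 and Klri2 are highest in the KO Gzmf-led cluster (57.9 and 80.8 CPM), while the Klrc1 and Klrk1 values of WT and KO are closest in the cycling cluster.

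In the same clusters Klrc1 stood at 251 and 363 CPM (Gzmk-led, ratio 1.45), 278 and 465 CPM (Gzmf-led, 1.68) and 252 and 304 CPM (cycling, 1.21). Klrk1 stood at 160 and 274 CPM (1.72), 162 and 224 CPM (1.38) and 167 and 185 CPM (1.11), and Klrd1 had ratios of 1.58, 1.43 and 1.03. Klre1 stood at 78.8 and 145 CPM in the Gzmk-led cluster (1.84) and at 183 and 195 CPM in the Gzmf-led cluster. In the cycling cluster Klre1 was lower in KO, and over the whole class its ratio was 1.10. The ratios were lowest in the cycling cluster for Klrc1, Klrk1 and Klrd1.

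In regulatory T-like cells Klrg1, the main receptor there, stood at 293 CPM in WT and 309 CPM in KO (1.05, 0.988 to 1.12). Of 4 members with 100 UMIs, 2 were higher past the fold (0.833% of all genes were) and 0 lower (1.36% of all genes). Klrc1 stood at 13.6 and 37.7 CPM (2.77, 2.14 to 3.61), from 80 and 250 UMIs, and was past the fold under 7 of 7 alternatives. Klrd1 stood at 9.70 and 18.5 CPM (1.91, 1.39 to 2.66), past the fold under 6 of 7 and not with doublets kept (log2 ratio 0.21). Klrk1 stood at 6.98 and 12.5 CPM (1.79, 1.22 to 2.67), within the fold on the pseudocount scale.

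These levels are low, and the level in free RNA was read beside them. In barcodes with 1 to 50 UMIs, which hold free RNA, Klrc1 stood at 84.1 CPM in WT and 131 CPM in KO, Klrd1 at 229 and 243 CPM, Klrh1 at 1.34 and 6.16 CPM (2 and 12 UMIs) and Klri2 at 28.9 and 34.9 CPM. Thinned, 2.21% of WT and 4.14% of KO regulatory T-like cells had a Klrc1 UMI, against 0.508% and 0.911% of macrophage-like cells. In the main regulatory T-like cluster 6.36% of cells had a Cd8a or Cd8b1 UMI. The part of free RNA or of other cells in the Klrc1 difference was not tested.

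In CD4 T-like cells the 27 genes summed to 390 and 404 CPM (1.04, 0.964 to 1.11), and the order turned at Leiden resolution 2 (283.3 and 247.6 CPM). Of 6 members with 100 UMIs, 1 was higher past the fold (1.56% of all genes were) and 0 lower (1.75% of all genes). This was Klri2, at 11.4 and 20.4 CPM (1.79, 1.20 to 2.72), and it was past the fold in 0 of 7 alternatives. Klrc1 stood at 109 and 116 CPM and Klrd1 at 157 and 129 CPM. In gamma-delta T-like cells only Klrk1 reached 100 UMIs, at 127 and 142 CPM (1.12, 0.869 to 1.46), so 0 of 1 was past the fold, where 3.51% of all genes were higher and 3.13% lower.

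A further cluster of 634 WT (6.53%) and 403 KO cells (4.13%), led by Lef1, S1pr1 and Tcf7, was left unnamed, because its CD8 and CD4 marker scores were too close to each other, by a gap that was set after the clusters were seen. Of its cells 69.2% had a Cd3e UMI and 31.1% a Cd8a or Cd8b1 UMI. Counted with the CD8 T-like class, an alternative chosen after seeing the data, it took the summed ratio of that class to 1.31.

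The unnamed cluster held some Ly49 genes at NK levels and lacked others. Klra6 (Ly49F) stood at 46.0 CPM against 10.4 CPM in the main NK-like cluster, 442% of the NK level (364 to 537). Klra5 (Ly49E) stood at 151%, Klra1 (Ly49A) at 94.3% (123 against 131 CPM), Klra7 (Ly49G) at 42.4% (171 against 403 CPM), Klra3 (Ly49C) at 35.1% and Klra9 (Ly49I) at 22.7%. The activating Klra8 (Ly49H) stood at 1.92% (1.35 to 2.65) and Klra4 (Ly49D) at 1.58% (6.75 against 428 CPM). Klra4 and Klra8 are 2 of the 3 genes shown above with ATTTGGT in the promoter block. Klra6 and Klra7 are those with CTTTGAT, Klra5 holds CTTAGAT, and no block was found for Klra1. Klra9 holds CTTTGTT, and the marked bases of Klra3 were not read. Klra2, which also holds CTTAGAT, was low in both clusters (3.21 against 2.92 CPM). A link between these letters and the levels was not tested.

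**Figure D4:**
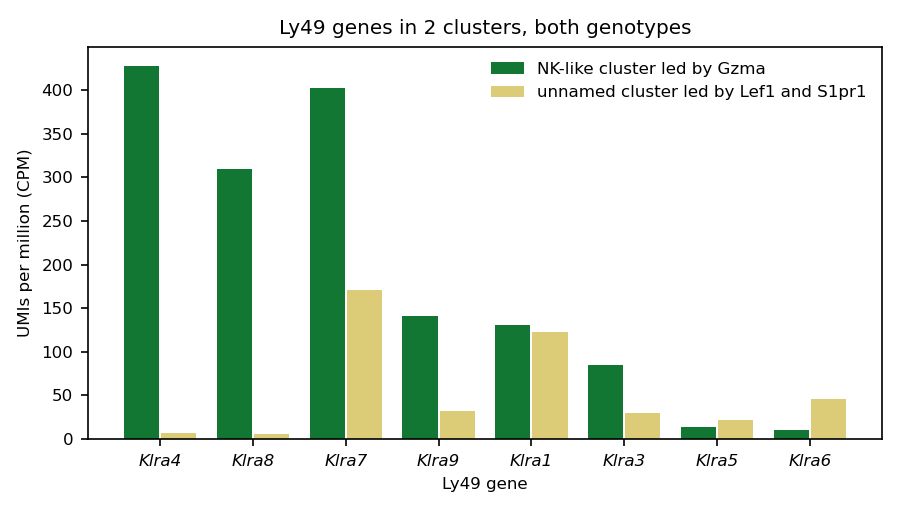
Level of 8 Klra genes, as CPM (bars from 0, linear axis), in the main NK-like cluster and in the unnamed cluster led by Lef1, S1pr1 and Tcf7, both genotypes together. Klra4 and Klra8 stand at 428 and 310 CPM in the NK-like and at 6.75 and 5.95 CPM in the unnamed cluster, while Klra1 stands at 131 and 123 CPM.

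In that cluster the 449 cells with a UMI of one of 9 Klra genes also differed in genes that are no members from the 588 cells without, although they were deeper (medians of 6405 and 4822 UMIs). Cells with a Klra UMI held 1300 CPM of Ikzf2 (Helios) against 446 CPM, 665 CPM of Fcer1g against 160 CPM and 134 CPM of Tyrobp against 46.4 CPM. They held less Cd8b1 (30.9 against 115 CPM), Ccr7 (46.8 against 225 CPM) and Lef1 (287 against 576 CPM), with Cd3e at 262 and 257 CPM. Klrb1c stood at 89.5 against 23.02 CPM and Klrk1 at 242 against 115 CPM.

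Between genotypes, over this cluster and the small unnamed cluster led by Tm4sf1, 2 of 14 members were higher in KO past the fold (0.563% of all genes were) and 1 was lower (3.53% of all genes). Within the Lef1-led cluster Klra6 stood at 37.8 and 56.8 CPM (1.51, 1.19 to 1.91), Klra3 at 24.2 and 37.0 CPM (1.53) and Klra5 at 27.1 and 13.8 CPM (0.511, 0.340 to 0.755). Klra1 had a ratio of 1.20 and Klra7 of 0.966.

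In macrophage-like single cells Klra2 stood at 166 CPM in WT and 144 CPM in KO (0.869, 0.824 to 0.916), Klrb1b at 62.8 and 92.4 CPM (1.47, 1.36 to 1.59) and Klrk1 at 60.1 and 71.7 CPM (1.19, 1.10 to 1.29). Thinned, 10.1% of WT and 12.2% of KO macrophage-like cells had a Klrk1 UMI. Klra3 (Ly49C) stood at 1.73 and 10.7 CPM in the macrophage-like cluster led by Cadm1 and C1qc, from 8 and 70 UMIs. Over all macrophage-like cells Klra3 had 16 UMIs in WT and 82 in KO, too few for a call. Thinned, 0.339% of WT and 0.341% of KO macrophage-like cells had a Klra3 UMI. In free RNA Klra3 stood at 14.8 CPM in WT and 15.9 CPM in KO. The part of free RNA or of other cells in the Klra3 difference was not tested.

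The bulk macrophage libraries gave the replicated comparison. Of 12939 genes tested, 37.7% were called at an adjusted p below 0.05, 18.8% higher and 18.9% lower in KO. Of the 27 members 20 passed the filter on low counts, of which 8 rose, 4 fell and 8 did not pass the test. Their median log2 fold change was 0.24, against -0.0013 over all genes tested. The 3 KO values lay all above the 3 WT values for 7 members and all below for 4, while 23.3% of all genes did each.

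**Figure D5:**
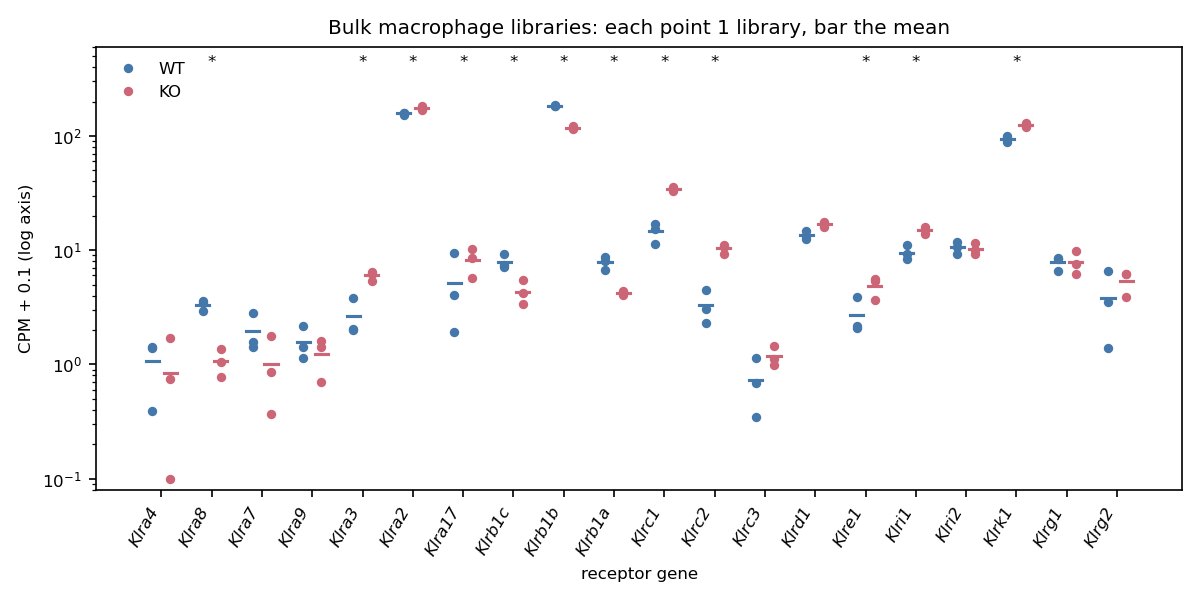
CPM (plus 0.1, log axis) of the 20 tested receptor genes in the bulk macrophage libraries. Points are the 3 WT and 3 KO libraries, bars are group means, and an asterisk marks an adjusted p below 0.05 in edgeR. Klra2, Klrb1b and Klrk1 stand highest, and Klrc1 and Klrc2 show KO libraries well above WT libraries.

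Klra2, Klrb1b and Klrk1 were the most abundant members in these libraries. Per kilobase of exon length, Klra2 stood at 82.8 CPM in WT and 92.3 in KO and Klrb1b at 82.4 and 53.1, followed by Klrk1 at 13.2 and 17.3. Klrb1b stood at 185, 181 and 184 CPM in the WT libraries and at 118, 116 and 121 CPM in the KO libraries. The groups were far apart and each was tight, and Klrb1b fell with a log2 fold change of -0.64 ± 0.049 (SE, adjusted p = 2.21e-18). In the macrophage-like single cells its level was higher in KO (1.47), opposite in direction to the bulk libraries. The bulk libraries and the single cells come from different preparations, and the reason for the difference was not tested.

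Klra2 (Ly49B) stood at 159, 153 and 160 CPM in WT and at 169, 183 and 174 CPM in KO libraries, a rise of 0.15 ± 0.047 on the log2 scale (adjusted p = 0.00701), and without the KO replicate 2 the adjusted p was 0.0523. Here too the single cell ratio, 0.869, pointed the other way. Klrk1 (NKG2D) stood at 99.0, 95.8 and 89.1 CPM in WT and at 119, 126 and 129 CPM in KO, and rose by 0.39 ± 0.059 (adjusted p = 1.24e-07). Its single cell ratio in macrophage-like cells was also above 1.

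Klrc1 and Klrc2 had the largest rises among the members called. Klrc1 (NKG2A) stood at 15.2, 11.2 and 16.98 CPM in WT and at 35.8, 34.0 and 33.0 CPM in KO libraries, a log2 fold change of 1.25 ± 0.13 (adjusted p = 7.68e-13). Klrc2 (NKG2C) stood at 2.98, 2.22 and 4.39 CPM in WT and at 10.6, 11.0 and 9.18 CPM in KO, a log2 fold change of 1.71 ± 0.24 (adjusted p = 1.59e-08). The groups did not overlap for either gene. In single cells these genes lay in lymphocytes, with Klrc1 at 2.86 and 6.44 CPM in macrophage-like cells against 261 and 389 CPM in CD8 T-like cells.

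Markers of lymphocytes moved with the same libraries. All 6 of 6 CD8 T markers (Cd8a, Cd8b1, Cd3d, Cd3e, Cd3g and Trac) were higher in KO, their sum lying between 78.5 and 80.4 CPM in WT and between 168.5 and 177.7 CPM in KO, and none was at 0. Cd3d, Cd3e, Cd3g and Trac are also among the CD4 T markers, of which 5 of the 6 tested were higher and 0 lower (89.0 to 95.3 against 151 to 162.8 CPM). Of 7 regulatory T markers 2 were higher and 0 lower. Of the 9 NK markers 7 were tested, 6 of them higher and 1 (Gzma) lower, with a sum of 763.8 to 806.7 CPM in WT and 958.5 to 974.6 CPM in KO, most of it from Tyrobp, which macrophages also express. Ncr1 was too low to test (0.706 and 0.443 CPM), and Cma1 had 0 counts in WT. Markers of myeloid and B cells moved in these libraries too. Monocyte markers were higher for 5 of 7 and lower for 0 (sum 583.5 to 597.4 CPM in WT, 905.9 to 938.6 in KO), conventional dendritic cell markers higher for 5 of 6 and lower for 0 (934.3 to 958 against 1248 to 1272 CPM), and B cell markers higher for 3 and lower for 1 of 6 (54.3 to 55.9 against 111.2 to 118 CPM). Migratory dendritic cell markers were lower for 4 of the 4 tested (550.8 to 573.7 against 215.2 to 217.7 CPM), the remaining one, Il4i1, being at 0 in WT. Neutrophil markers were lower for 4 and higher for 1 of 7, with sums of 97.3 to 106.8 and 102.5 to 112.2 CPM. Macrophage markers were higher for 4 and lower for 3 of 8, with sums of 9502 to 9742 CPM in WT and 9013 to 9123 CPM in KO. Klra2, Klrb1b, Klrk1 and Klri1 are found in some of these cells. The part of other cells in the member changes was not tested, and in bulk RNA a larger number of cells of a type and more RNA per cell cannot be told apart.

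Klra3 (Ly49C) stood at 3.73, 1.96 and 1.90 CPM in WT and at 5.28, 6.03 and 6.39 CPM in KO, and rose with a log2 fold change of 1.14 ± 0.30 (adjusted p = 0.00127). Klri1 stood at 10.9, 8.21 and 9.08 CPM in WT and at 13.8, 14.9 and 15.9 CPM in KO, and rose by 0.63 ± 0.17 (adjusted p = 0.00194). For both the KO libraries lay above all WT libraries. Klri1 was highest in the Plet1-led dendritic cluster in single cells. In the same KO libraries 5 of 6 conventional dendritic cell markers, such as Clec9a and Xcr1, were higher. Of the migratory dendritic cell markers, 4 of the 4 tested were lower. The part of dendritic cells in the Klri1 rise was not tested. Klre1 (0.91, adjusted p = 0.0186) and Klra17 (0.73, adjusted p = 0.0303) also passed, but their groups overlapped, and each lost the call without WT replicate 1, WT replicate 2, KO replicate 1 or KO replicate 3, with adjusted p up to 0.135 for Klre1 and 0.290 for Klra17.

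Of the tested receptors with over 80% of their single cell UMIs in NK-like cells, Klra8, Klrb1c and Klrb1a fell in the bulk libraries, and Klra4, Klra7 and Klra9 did not pass the test. Klra8 (Ly49H) stood at 2.82, 3.52 and 3.37 CPM in WT and at 1.26, 0.679 and 0.958 CPM in KO (log2 fold change -1.67 ± 0.47, adjusted p = 0.00320). Klrb1c (NK1.1) stood at 9.19, 7.04 and 7.32 CPM in WT and at 4.08, 5.35 and 3.27 CPM in KO (-0.91 ± 0.25, adjusted p = 0.00226), and Klrb1a at 8.53, 6.65 and 7.90 against 3.96, 4.16 and 4.31 CPM (-0.91 ± 0.25, adjusted p = 0.00225). In none of the 3 did the groups overlap.

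The tested members that did not pass were Klrd1, Klri2, Klrg1, Klrg2, Klrc3, Klra4, Klra7 and Klra9. Klrd1 stood at 12.4, 14.6 and 13.2 CPM in WT and at 15.7, 17.7 and 16.9 CPM in KO (log2 fold change 0.32 ± 0.15, adjusted p = 0.0887), the KO libraries all being higher. Klri2 had means of 10.5 ± 1.3 CPM in WT and 10.2 ± 1.1 CPM in KO (SD, n = 3 libraries each), and Klrg1 of 7.73 ± 1.1 and 7.72 ± 1.8 CPM. Klri2, with a ratio of 3.99 in CD8 T-like single cells, thus had a bulk log2 fold change of -0.06 ± 0.18. Too low to test were Klrb1f (12 WT and 41 KO counts in all), Klrh1 (6 and 38), Klra5 (13 and 8), Klra6 (3 and 21), Klra10 (10 and 35), Klra1 (15 and 14) and Klrb1 (0 in every library). Of 4 pseudogenes in the bulk annotation Klrb1-ps1 had 0 counts, and Klra11-ps, Klra13-ps and Klra14-ps had at most 13 counts in a library.

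Peaks in the macrophage lists lay at a minority of these genes. Within 2 kb of a gene, the ATAC list (30189 peaks) held 10 peaks at 3 of 27 members (11.1%), Klrb1c, Klrb1b and Klra2, where 20.6% of all 48440 annotated genes had a peak. The strongest at Klrb1b lay in the gene body at chr6:128820186-128820686 (mm10), 5895 bp downstream of the start, with a deposited peak score of 34.7, the 80.6th percentile of the list. Klra2 had 3 peaks with scores from 4.68 to 9.10. Within 10 kb the count was 20 peaks at 8 members (29.6%, against 31.3% of all genes), among them a peak 2872 bp upstream of Klrg1 at chr6:122285504-122286004 with a score of 104.6 (98.7th percentile). No ATAC peak lay within 10 kb of any gene from Klra17 to Klra1.

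EGR2 peaks were listed at the Klrb1 genes alone among the members. The WT list (5408 peaks) held 1 within 2 kb, where 5.93% of all genes had a peak, in the body of Klrb1c at chr6:128780115-128780615, with a score of 37.96. The KO list (4995 peaks) held 2, where 5.38% of all genes had a peak, in Klrb1c at chr6:128780942-128781442 with a score of 45.9 and in Klrb1b at chr6:128819549-128820049 with a score of 25.03. The peaks at Klrb1c in the WT and KO lists did not overlap. With 1 list per genotype, the presence of a peak in only one of them is a description of these lists.

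Genes that work with the receptors were read from lists. The shares of all genes beside every list count below are these. In NK-like cells 0.501% were higher and 1.13% lower past the fold, and in CD8 T-like cells 1.11% and 2.09%. In bulk 18.8% were called higher and 18.9% lower in KO. Of the 4 adaptors (Tyrobp, Hcst, Fcer1g and Cd247), 0 were past the fold in NK-like cells, with Fcer1g at 1835 and 2202 CPM, and 0 in CD8 T-like cells, with Hcst, the adaptor of NKG2D, at 239 and 324 CPM. In the bulk libraries 2 of the 4, Tyrobp and Cd247, rose. Of 13 signalling genes, such as Syk, Zap70 and Ptpn6, 0 were past the fold in NK-like cells, and 0 of the 12 with enough UMIs in CD8 T-like cells, while 10 of 13 rose and 0 fell in bulk.

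Of the receptors' ligands, 9 of 16 had enough UMIs in NK-like cells, where 0 were higher and 1, Clec2i, a ligand family member of Klrb1 receptors, was lower (19.2 and 10.9 CPM). In bulk 11 of 16 were tested, of which 5 rose and 1 fell. Of 14 other NK cell receptors 0 were past the fold in NK-like cells, and in CD8 T-like cells 1, Ncr1, was lower. In bulk 10 of the 12 tested rose and 2 fell. Of 13 transcription factors with enough UMIs in NK-like cells 0 were higher and 1, Klf2, which holds lymphocytes in a recirculating state, was lower, at 723 and 225 CPM (0.312, 0.297 to 0.326). In CD8 T-like cells Id2 was higher (701 and 1084 CPM) and Klf2 (561 and 237 CPM) and Tcf7 (43.5 and 25.1 CPM) were lower. In bulk 3 of 13 transcription factors rose and 5 fell.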

How the data were processed

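For the 6 bulk libraries the authors deposited raw counts per gene. These came from featureCounts 2.0.6 with GENCODE vM10 gene models, strand ignored, per the file headers. The headers show no option for multi-mapped reads, and between 77.8% and 84.1% of low counts were even, as counting both ends of a pair gives. Per the file headers, Cell Ranger 8.0.1 made the deposited UMI counts, and empty barcodes were kept in the matrices. EGR2 has 1 deposited peak list per genotype and ATAC 1 merged list, with peaks of 501 bp and a peak score; the caller is not given in the sources used here. Coordinates are on mm10, which comes from the submitters' processing notes.

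Barcodes with 500 or more genes, 1000 or more UMIs and a mitochondrial share up to 10% were taken as cells, and scrublet doublets (501 WT, 4.91%, and 319 KO, 3.16%) removed. Cells were clustered in scanpy 1.11.5 on 2000 variable genes without the members (30 components, Leiden resolution 1). A cluster took the name of its best marker score where at least 3 markers were detected and the next score was over 0.1 lower, a gap set after the clusters were seen. UMIs were summed per class and genotype. Bulk counts were tested with edgeR 4.0.16 (R 4.3.3, filterByExpr, TMM, quasi-likelihood, 2-sided, Benjamini-Hochberg over all genes tested), fitted on the whole table. The counts of bulk lists are at an adjusted p below 0.05. DESeq2 1.42.0 was an alternative. The bulk fit and the fold rule were checked on simulated data. Same-numbered WT and KO libraries did not deviate together (correlations -0.0048, 0.0019 and 0.011), so numbers were taken not to pair them. Every member with at least 100 UMIs is described by class, and every member in bulk. The members and gene lists were chosen with earlier results of these data known. Shares of cells carry exact Clopper-Pearson and levels exact Poisson intervals at the 95% level.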

Additional observations from a re-analysis of the deposited data

How the results depend on the processing

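In CD8 T-like cells the summed ratio of the 27 genes, 1.37, was 1.15 at Leiden resolution 0.5, 1.31 at resolution 2, 1.15 with members allowed among the variable genes, 1.53 with each matrix clustered by itself, 1.13 with a looser cell filter, and 1.31 with the unnamed Lef1-led cluster added, an alternative chosen after seeing the data. In NK-like cells the ratio, 0.964, was 0.983 with each matrix clustered by itself and 0.949 with the looser filter. Neither of these 2 sums changed direction. The sum in CD4 T-like cells (390 and 404 CPM in WT and KO) turned to 283.3 and 247.6 CPM at resolution 2, 433.7 and 433.0 CPM with each matrix clustered by itself, 404.7 and 399.2 CPM with the looser and 404.9 and 403.2 CPM with the stricter filter, and the sum in gamma-delta T-like cells (277 and 247 CPM) turned to 187.4 and 238.7 CPM with the stricter filter. Of 360 single cell ratios recomputed for single members, 297 stayed within their counting interval, 62 moved beyond it and 1 reversed, Klrb1c in CD8 T-like cells with each matrix clustered by itself (log2 ratio 0.42). Thinning moved 55 of 70 shares of cells beyond their interval. In bulk, leaving out each library in turn gave 6 to 9 members higher and 4 to 5 lower, and the other alternatives gave 7 or 8 higher and 4 lower. With the replicate number as a block, 8 members were higher and 4 lower, of 4691 genes called against 4874, and DESeq2 called 5142. Beyond the losses of Klre1, Klra17 and Klra2, Klrg2 gained the call without the WT replicate 3 (adjusted p = 0.00887) and Klra7 without the KO replicate 3 (adjusted p = 0.0378), and Klra17 lost it in DESeq2 (adjusted p = 0.474). Depth limits the counting intervals, the shares of cells, the number of genes detected per cell and which members reach 100 UMIs in a class. With 1 matrix per genotype more depth would not replace a replicate. Members below 100 UMIs in a class were not called in either direction.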
